A study of Arabidopsis thaliana with 20 samples.

Results

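The transcriptomes of inflorescence meristems (IMs) of the *plt3 plt7* double mutant were compared with those of the wild-type accession Col-0, and the genes that were higher or lower in the mutant are described by function and family, beyond those of the low-oxygen response. These were 10 of the 20 RNA-seq libraries of the study, 5 per genotype, and the other 10 came from shoot apical meristems (SAMs) of seedlings. Each IM library held about 50 meristems dissected from plants grown on soil at 31 to 33 d post germination (dpg), with flowers and older primordia removed, taken in 3 harvest groups that each held both genotypes. *plt3 plt7* carries CRISPR mutations of *PLETHORA3* and *PLETHORA7* in the Col-0 background, as the study describes it, whereas the sample labels give the genotype name only. The labels call the 5 libraries of a group biological replicates.

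PLETHORA proteins are transcription factors of the AP2 domain family, close to AINTEGUMENTA, that keep cells in a dividing, undifferentiated state in root and shoot meristems. In the shoot, PLT3, PLT5 and PLT7 are known to act in overlapping fashion in the placing of new organs around the meristem, a process that depends on auxin maxima and on cytokinin. The IM is the dome of undifferentiated cells that gives rise to flowers after the floral transition, which is set off by MADS-box factors such as SOC1 and held back by the repressor FLC.

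The dissected tissue held transcripts of meristem and flower primordium genes, and also of tapetum genes in amounts that varied between libraries. Mean normalised counts, which are counts divided by a size factor per library, were 186 in Col-0 and 202 in *plt3 plt7* for the stem-cell regulator *WUS*, 2827 and 2608 for the meristem gene *STM*, and 6663 and 6955 for the flower primordium gene *AP1*. The stem-cell peptide gene *CLV3*, a defining marker, was near the detection limit with 10.2 and 3.59 and was not tested. Ovule and seed markers summed to at most 8.29 in Col-0 and 16.0 in the mutant, with *INO* at 0 in every library, whereas the tapetum and pollen markers summed to between 639 and 1988 in Col-0 and between 259 and 1842 in *plt3 plt7*. None of the epidermis, xylem, guard cell, trichome, tapetum and mesophyll markers was called. In bulk tissue a lower value cannot be told apart between fewer cells of a type and less RNA per cell.

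Library totals ran from 25.6 to 67.0 megacounts (M) in Col-0 and from 24.8 to 114.9 M in *plt3 plt7*, and 18845 to 20520 genes per library had at least 10 counts. Of the targeted genes, *PLT3* had 1617, 1416, 1807, 1599 and 1788 normalised counts in Col-0 and 942, 812, 934, 931 and 1000 in *plt3 plt7*, a log2 fold change of -0.83 ± 0.07 (SE; adjusted p = 2.47e-27). *PLT7* was at 770 ± 93.7 and 668 ± 68.2 (SD, n = 5 each) and was not called (adjusted p = 0.495). *PLT3* shared 14.2% of its 31-base words with other transcripts, because it overlaps AT5G10520 on the opposite strand.

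Of 19432 genes tested, 297 were called, which is 1.53%. The call asked for a DESeq2 adjusted p-value under 0.1 and a difference of more than 25% between the genotypes, so that a lower gene was reduced by at least 20%. The higher genes were 89 (0.458% of those tested) and the lower ones 208 (1.07%). The low-oxygen list held 21 of the calls, all of them lower, and the remaining 276 calls were 89 higher and 187 lower genes. A higher call differed by a median log2 fold change of 0.52 and a lower one by 0.58 in size, and 13 higher and 35 lower genes changed more than 2-fold. The genotypes did not overlap for 168 of the 297 calls, against 2.5% of all genes tested. Within the 3 harvest groups 291 of the calls had 1 sign throughout, as had 33.6% of all genes tested. The called genes were of middling abundance, with a median of 327 normalised counts against 802 over all genes tested.

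**Figure D1:**
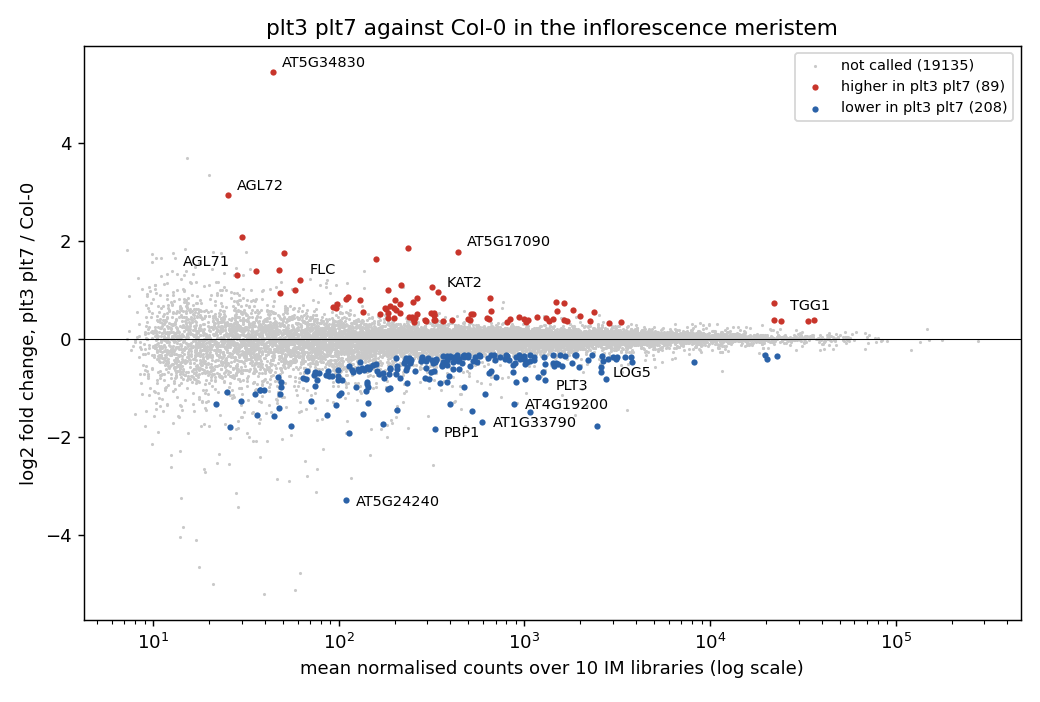
Log2 fold change of *plt3 plt7* over Col-0 (y axis) against the mean of normalised counts over the 10 IM libraries (x axis, log scale) for every gene tested. Red points are the 89 genes called higher and blue points the 208 called lower, and grey points are the genes not called, among them low-count genes with fold changes as large as those of the called ones.

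How firmly a call stood differed between genes. The edgeR quasi-likelihood test called 0.751% of the genes and made 145 of the 297 calls, and 118 were made by edgeR and also by each of the 10 DESeq2 fits that left out 1 library. These 118, of which 39 were higher and 79 lower and 15 belonged to the low-oxygen list, are named held calls below. For the other genes described, the number of such fits that made the call is given, in most cases with the highest adjusted p-value among them. Replicate 5 was the only library of its genotype in harvest group 3, so that leaving it out also took its partner out of the comparison. Libraries stood apart within both groups. *plt3 plt7* replicate 3 had the largest total, 114.9 M, and fragments of 287 nt on average against 358 to 438 nt in the rest of its group. *plt3 plt7* replicate 2 was the lowest of the 10 libraries for 38.5% of the lower calls (13.4% of all genes tested) and the highest for 38.2% of the higher calls (12.8%). Col-0 replicate 4 had the highest value of the 10 libraries for 115 of the 208 lower calls (55.3%), as it did for 19.1% of all genes tested, and the lowest for 44 of the 89 higher calls (49.4%, against 13.6%). Every lower call had its highest library in Col-0 and its lowest in the mutant, so shares over all genes are not a like base. Each other Col-0 library was the highest for 22 to 26 lower calls. Over all genes these libraries were the highest for 871 to 2010 and replicate 4 for 3714. Col-0 replicate 4 also had the longest fragments of the Col-0 libraries, 430 nt, and the smallest total. Without it 195 genes were called, 68 higher and 127 lower, and 181 of these were among the 297. Without Col-0 replicate 2 the count was 190, with 69 higher and 121 lower, and without Col-0 replicate 3 it was 479, with 113 higher and 366 lower.

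To describe functions, 39 gene lists were compiled from gene families and pathways, and 102 of the 297 calls were members of at least one. The lists were chosen with earlier results of these data known, so their counts of calls are descriptive. The base for all counts below is 1.53% of all genes called, 0.458% higher and 1.07% lower. Lists with few genes can exceed it through 1 or 2 calls. Lists with 3 higher calls were the SOC1 clade of MADS-box genes, phloem and the myrosinase system, while lower calls occurred in hormone, transcription factor, sugar, light and stress lists. Further classes were read from words in the product name. By these, protein kinases, the largest class with an assigned function (650 genes tested), held 1 call, and ribosomal proteins 1 of 323. The called genes *ckl10* and *RPL3B* did not match these words and are not in the 2 counts, which may be too low. Uncharacterised proteins held 19 of 1311, 5 higher and 14 lower, a share of 1.45% beside the 1.53% of all genes.

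**Figure D2:**
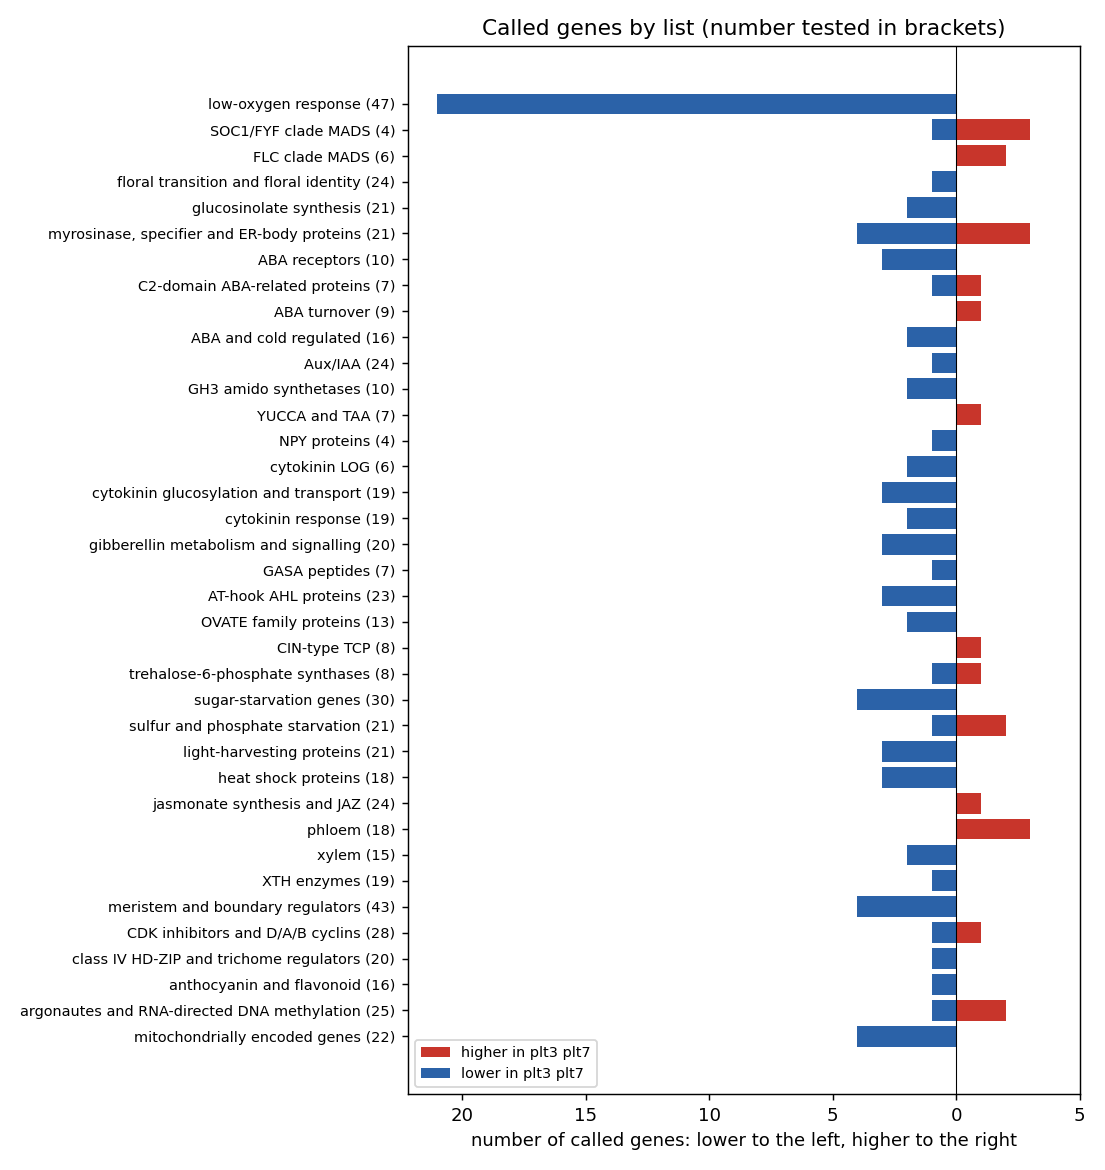
Number of called genes (x axis) in each gene list that held a call (y axis, with the number of genes tested in brackets). Red bars to the right count genes higher in *plt3 plt7* and blue bars to the left genes lower in it, and apart from the 21 low-oxygen genes no list held more than 4 lower or 3 higher genes.

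MADS-box genes were the transcription factor family with most higher calls. Of 43 tested, 5 were higher, *AGL72*, *AGL71*, *AGL42*, *FLC* and *MAF4*, and 1 was lower, *SOC1* (13.95% called, median log2 fold change of the family -0.05 beside -0.005 over all genes). All 4 members of the SOC1 and FYF clade above the count minimum were called, of which *AGL72* passed that minimum through the mutant libraries alone. *AGL42*, also named *FYF*, *AGL71* and *AGL72* are related to *SOC1* and are known to promote flowering and, for *FYF*, to delay floral organ senescence and abscission. *AGL14* and *AGL19* of the same clade were below the count minimum.

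*AGL72* (AT5G51860, chr5:21081844-21084427) and *AGL71* (AT5G51870, chr5:21085462-21088414) are neighbours on the minus strand, 1034 bases apart. Both rose, and the 250 bases before each annotated start are shown because the neighbours moved together. They were read from the TAIR10.1 genome, the build of the files, on the strand of the gene and 5′ to 3′, and are chr5:21084428-21084677 for *AGL72* and chr5:21088415-21088664 for *AGL71*. No letters are in capitals since neither holds an AINTEGUMENTA-type element, a G-box or a CArG box, the 3 motifs searched.
AGL72: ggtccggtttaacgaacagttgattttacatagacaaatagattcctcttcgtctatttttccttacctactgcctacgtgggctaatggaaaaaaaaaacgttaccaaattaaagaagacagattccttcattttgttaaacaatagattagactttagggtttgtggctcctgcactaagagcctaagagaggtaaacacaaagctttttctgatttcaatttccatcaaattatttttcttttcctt
AGL71: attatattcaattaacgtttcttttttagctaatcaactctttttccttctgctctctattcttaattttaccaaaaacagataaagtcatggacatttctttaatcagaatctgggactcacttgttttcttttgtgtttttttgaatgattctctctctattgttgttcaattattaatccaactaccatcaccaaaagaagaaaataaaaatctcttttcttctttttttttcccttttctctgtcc

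*AGL72* was scarcely detected in Col-0, with 6.65, 5.18, 4.71, 6.08 and 6.75 normalised counts, and had 18.5, 54.5, 56.5, 32.9 and 60.3 in *plt3 plt7*. Every mutant library was above every Col-0 library, and replicate 1 was the lowest of the mutant. The log2 fold change was 2.92 ± 0.47 (adjusted p = 2.75e-07), also called by edgeR. *AGL72* reached the count minimum only through the 5 mutant libraries, so that it was called in the 5 fits that left out a Col-0 library and could not be tested in those that left out a mutant one. *AGL71* had 19.9, 21.8, 11.8, 13.7 and 16.2 in Col-0 against 37.1, 44.9, 63.0, 27.6 and 26.7 in *plt3 plt7*, again without overlap. Its log2 fold change of 1.29 ± 0.39 (adjusted p = 0.0441) was called in 4 of the 10 leave-one-out fits, with an adjusted p of 0.403 without *plt3 plt7* replicate 3, and not by edgeR (adjusted p = 0.152).

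*AGL42* (AT5G62165), the most abundant of the 3, had 939, 770, 782, 758 and 739 normalised counts in Col-0 and 1026, 1000, 1149, 1009 and 1210 in the mutant. The groups did not overlap, and Col-0 replicate 1 lay closest to the mutant values. It rose by 0.44 ± 0.09 (adjusted p = 0.000519), a held call. *SOC1* (AT2G45660) went the other way, from 1286, 1404, 1224, 1318 and 1279 to 1062, 891, 974, 913 and 969. All 5 mutant libraries were below all Col-0 libraries, and the log2 fold change was -0.43 ± 0.07 (adjusted p = 3.47e-07), a held call.

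Of the 6 genes of the FLC clade, *FLC* and *MAF4* were higher, and *MAF1*, *MAF2*, *MAF3* and *MAF5* had log2 fold changes between -0.05 and 0.24. *FLC* (AT5G10140, chr5:3173382-3179448, minus strand) represses *SOC1* and flowering until vernalisation silences it. It had 41.8, 27.0, 31.8, 54.7 and 33.8 normalised counts in Col-0 and 120, 88.1, 86.8, 75.3 and 61.4 in the mutant, with no overlap. Its log2 fold change was 1.198 ± 0.27 (adjusted p = 0.00111), a held call, but 60.6% of its 31-base words were shared with other annotated transcripts. It overlaps the antisense gene AT5G01675 by 804 exon bases. That gene was not among the loci counted, so the share is not one between counted loci alone. The strand option of the counting is not given in the sources used here, so sense and antisense reads of *FLC* cannot be told apart. The 250 bases before its annotated start, chr5:3179449-3179698, are shown because they hold a G-box, CACGTG, marked in capitals at -146 to -141.
FLC: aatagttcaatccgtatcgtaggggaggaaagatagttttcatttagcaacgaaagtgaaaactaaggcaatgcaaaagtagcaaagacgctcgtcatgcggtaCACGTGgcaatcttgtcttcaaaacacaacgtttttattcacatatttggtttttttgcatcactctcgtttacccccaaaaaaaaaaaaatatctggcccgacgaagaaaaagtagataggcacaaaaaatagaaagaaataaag

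*MAF4* (AT5G65070) had 155, 166, 180, 141 and 207 in Col-0 and 185, 231, 216, 249 and 261 in *plt3 plt7*, and here the groups overlapped. Its rise of 0.42 ± 0.14 (adjusted p = 0.0837) was called in 1 of the 10 leave-one-out fits, with an adjusted p of 0.345 without Col-0 replicate 4, and not by edgeR. Among 24 further genes of floral transition and floral identity 1 was called. *FPF1*, which promotes flowering, was lower by -0.41 ± 0.11 (adjusted p = 0.0146), with 955 to 1136 normalised counts in Col-0 and 667 to 983 in the mutant. Every leave-one-out fit made this call, but edgeR did not (adjusted p = 0.16).

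**Figure D3:**
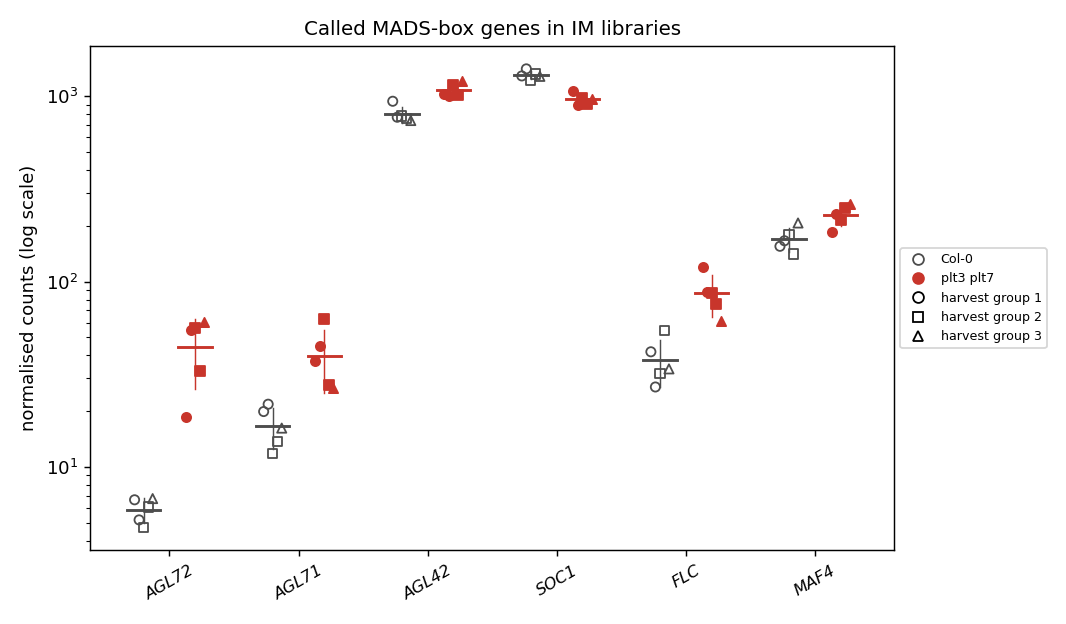
Normalised counts (y axis, log scale) of the 6 called MADS-box genes in each of the 10 IM libraries, open grey symbols for Col-0 and filled red ones for *plt3 plt7*, shaped by harvest group, with bars for the mean and lines for the SD (n = 5). The genotypes are apart for all but *MAF4*, and *SOC1* alone is lower in the mutant, falling from 1302 to 962.

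Cytokinin genes that were called were all lower. The LOG enzymes release active cytokinin from its nucleotide form, and all 6 that were tested had log2 fold changes below 0, with a median of -0.29. *LOG5* (AT4G35190) had 3424, 3020, 2998, 3097 and 2828 normalised counts in Col-0 and 2489, 2294, 2233, 2076 and 2105 in *plt3 plt7*. The lowest Col-0 library lay above the highest mutant library, and the log2 fold change was -0.46 ± 0.06 (adjusted p = 8.25e-13). *LOG7* (AT5G06300) fell from 136, 155, 114, 155 and 113 to 84.0, 57.7, 94.0, 74.3 and 59.1, a log2 fold change of -0.85 ± 0.20 (adjusted p = 0.00232). Both were held calls without overlap. *LOG1*, *LOG3*, *LOG4* and *LOG8* were at -0.35, -0.20, -0.23 and -0.09 and were not called. None of the 6 tested cytokinin oxidases of the CKX family, which degrade the hormone, was called.

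Of 19 genes of cytokinin glucosylation and transport 3 were lower. *UGT76C2*, whose product inactivates cytokinin by N-glucosylation, had 496, 351, 405, 471 and 396 normalised counts in Col-0 and 262, 282, 328, 311 and 283 in the mutant (-0.53 ± 0.12, adjusted p = 0.0016). *ENT3*, a nucleoside transporter that carries cytokinin ribosides, had 446, 475, 415, 671 and 489 against 242, 229, 257, 327 and 301 (-0.88 ± 0.14, adjusted p = 1.69e-07). Both were held calls and the genotypes did not overlap, with Col-0 replicate 4 the highest for *ENT3*, which shares 12.3% of its sequence words with other transcripts. *PUP18*, a purine permease gene, had 93.1, 197, 144, 339 and 144 against 75.4, 57.7, 89.5, 137 and 141. The ranges overlapped, and the log2 fold change of -0.89 ± 0.29 (adjusted p = 0.0793) was called in 4 of the 10 leave-one-out fits, with an adjusted p of 0.489 without Col-0 replicate 4.

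The cytokinin response list held 19 genes, of which *AHP6* and *KMD2* were lower. *AHP6* encodes a pseudo-phosphotransfer protein that dampens cytokinin signalling and is known to act in the timing of organ initiation. It had 168, 171, 140, 155 and 155 normalised counts in Col-0 and 82.8, 106, 124, 95.5 and 84.6 in *plt3 plt7*. No library overlapped, yet the call (-0.66 ± 0.17, adjusted p = 0.0136) was made in 6 of the 10 leave-one-out fits, and the adjusted p was 0.118 without Col-0 replicate 5. *KMD2*, an F-box protein gene that acts on type-B response regulators, had 330, 486, 360, 762 and 346 against 203, 175, 227, 329 and 277. The highest mutant library reached almost to the lowest Col-0 one, and the fall of -0.91 ± 0.21 (adjusted p = 0.00141) was made in all leave-one-out fits but not by edgeR (adjusted p = 0.129).

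Auxin genes were called in both directions. *YUC2* (AT4G13260), a flavin monooxygenase of the last step of auxin synthesis, was the only called gene of the 7 of its pathway that were tested. It rose from 148, 196, 167, 173 and 128 normalised counts to 345, 308, 222, 256 and 209. Each mutant library was above each Col-0 library, and the log2 fold change was 0.70 ± 0.14 (adjusted p = 0.000196), a held call. *YUC1*, *YUC4*, *YUC6* and *TAA1* had log2 fold changes between -0.02 and 0.20. *NPY4*, of a small family that acts with AGC kinases on auxin-dependent organ formation, had 161 to 256 in Col-0 and 93.4 to 159 in the mutant (-0.72 ± 0.15, adjusted p = 0.000218), a held call and the only one of 4 family members tested. A further 3 early auxin-response genes were lower without holding. *IAA2* had 151 to 340 in Col-0 and 83.3 to 158 in the mutant (-0.81 ± 0.20, adjusted p = 0.00769) and was the only one of 24 *Aux/IAA* genes called, in all leave-one-out fits but not by edgeR. *GH3.5* and *GH3.17*, which conjugate auxin to amino acids, were lower by -0.78 ± 0.23 and -0.46 ± 0.14 (adjusted p = 0.0417 and 0.0538). They were called in 5 and 2 of the 10 leave-one-out fits, with adjusted p-values of 0.199 without Col-0 replicate 2 and 0.319 without Col-0 replicate 4.

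**Figure D4:**
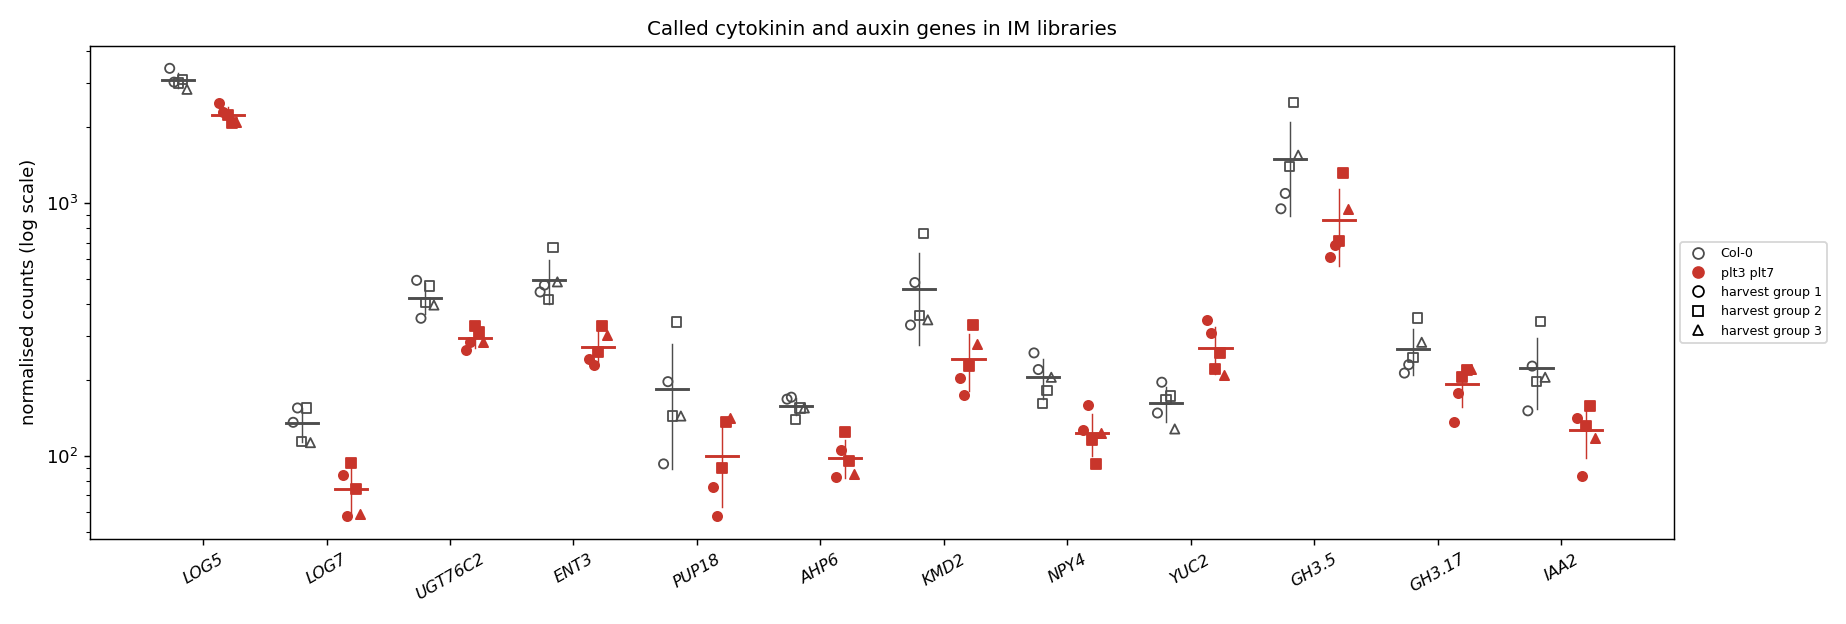
Normalised counts (y axis, log scale) of called cytokinin genes (*LOG5* to *KMD2*) and auxin genes (*NPY4* to *IAA2*) in the 10 IM libraries, with symbols, bars and lines as in the plot of MADS-box genes. *YUC2* is the only one of these 12 genes that is higher in *plt3 plt7*, and *LOG5*, near 3073 in Col-0 and 2239 in the mutant, is the most abundant and least scattered.

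Gibberellin genes were lower where they were called, in 3 of the 20 tested. *GA20OX2* (AT5G51810), of the oxidases that make the precursors of active gibberellin, had 573, 473, 495, 469 and 490 normalised counts in Col-0 and 367, 396, 268, 333 and 279 in *plt3 plt7*. The groups did not overlap, and the log2 fold change was -0.62 ± 0.11 (adjusted p = 7.7e-06), a held call. The receptor gene *GID1B* was lower by -0.32 ± 0.10 (adjusted p = 0.0551), in 4 of the 10 leave-one-out fits, with 0.271 without Col-0 replicate 4. *CYP714A1*, which inactivates gibberellin, was lower by -0.33 ± 0.08 (adjusted p = 0.00233) in 7 of them, its change being under the minimum fold without Col-0 replicate 4 or *plt3 plt7* replicate 3 or 4. *GASA14*, one of 7 tested genes of gibberellin-regulated peptides, had 8625 to 11685 in Col-0 and 5635 to 8603 in the mutant (-0.47 ± 0.09, adjusted p = 5.21e-05), a held call that was lost in the fit of all 20 libraries (0.223).

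Abscisic acid (ABA) perception genes were called lower in 3 of 10 receptors tested, and 8 of the 10 were below 0. *PYL2* had 103, 80.9, 94.9, 95.7 and 87.8 normalised counts in Col-0 against 65.5, 57.7, 50.6, 53.0 and 52.2 (-0.74 ± 0.20, adjusted p = 0.0189). *PYL5* had 148, 173, 150, 334 and 134 against 105, 67.3, 93.6, 95.5 and 125 (-0.92 ± 0.25, adjusted p = 0.02). *PYL9* had 390, 365, 341, 454 and 361 against 329, 311, 260, 260 and 279 (-0.41 ± 0.12, adjusted p = 0.0329). The genotypes did not overlap for any of the 3, and Col-0 replicate 4 was the highest for *PYL5* and *PYL9*. They were called in 6, 6 and 5 of the 10 leave-one-out fits, with adjusted p-values up to 0.17 without *plt3 plt7* replicate 3, 0.114 without *plt3 plt7* replicate 4 and 0.189 without *plt3 plt7* replicate 3, and none by edgeR. Of the CAR proteins, C2-domain partners that bring these receptors to membranes, *CAR1* was lower, from 358, 341, 348, 494 and 305 to 260, 194, 170, 240 and 195 (-0.80 ± 0.16, adjusted p = 9.98e-05), a held call. *CAR6* was higher, from 179 to 232 in Col-0 to 255 to 299 in the mutant (0.45 ± 0.12, adjusted p = 0.0108), in 9 of the 10 fits, with 0.109 without *plt3 plt7* replicate 3. Its call was lost in the fit of all 20 libraries (0.566). Among 16 ABA- and cold-regulated genes *TIL*, a temperature-induced lipocalin, was lower (-0.41 ± 0.08, adjusted p = 9.98e-05), a held call for a gene with 22.6% of its sequence words shared and an antisense overlap. *KIN1* was lower by -0.68 ± 0.20 (adjusted p = 0.0414) in 4 of the 10 fits, with 0.254 without Col-0 replicate 5.

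The glucosinolate-myrosinase system moved in both directions. Myrosinases are stored apart from glucosinolates and release toxic breakdown products when tissue is damaged, and specifier proteins set which product forms. The 2 main shoot myrosinase genes, *TGG1* and *TGG2*, lie next to each other on chromosome 5 and were among the most abundant called genes. *TGG1* had 19538, 22776, 22550, 18886 and 21669 normalised counts in Col-0 and 29493, 24672, 25301, 26198 and 29467 in *plt3 plt7* (0.36 ± 0.07, adjusted p = 5.42e-05). *TGG2* had 28182, 31591, 31778, 26337 and 29769 against 42720, 33101, 36674, 37854 and 40033 (0.37 ± 0.07, adjusted p = 0.000145). The genotypes did not overlap for either, and edgeR called both, but each was called in 9 of the 10 leave-one-out fits because its fold change fell under the minimum in 1 of them, without *plt3 plt7* replicate 1. *ESP*, the epithiospecifier gene, had 1167, 1332, 1160, 1030 and 1202 against 1734, 1648, 1533, 1515 and 1208. The mutant libraries were higher except replicate 5, which lay within the Col-0 range, and the rise of 0.37 ± 0.08 (adjusted p = 0.00136) was a held call that was lost in 1 fit of all 20 libraries (adjusted p = 0.402).

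A further 4 members were lower. *PBP1* (AT3G16420) encodes a jacalin-type lectin that binds a beta-glucosidase of endoplasmic reticulum (ER) bodies, and had 104, 198, 293, 1435 and 496 normalised counts in Col-0 and 39.6, 38.4, 245, 325 and 111 in *plt3 plt7*. Its values overlapped and spread widely in both genotypes, and its log2 fold change of -1.85 ± 0.45 (adjusted p = 0.00443) was a held call that had an adjusted p of 0.0728 without Col-0 replicate 4 and was lost when harvest group was left out of the model (0.501). *NAI2*, needed to form ER bodies, had 396, 553, 695, 1457 and 899 against 313, 316, 567, 630 and 600 (-0.69 ± 0.17, adjusted p = 0.00364). *GLL23*, a GDSL lipase-like protein gene, had 1097, 1369, 1543, 2688 and 1928 against 944, 875, 1337, 1391 and 1255 (-0.55 ± 0.12, adjusted p = 0.00127), and the nitrile-specifier gene *NSP1* had 2143, 2562, 2862, 4856 and 3185 against 1413, 1732, 2326, 2357 and 2541 (-0.59 ± 0.17, adjusted p = 0.029). In all 4 genes the groups overlapped and Col-0 replicate 4 was the highest of the 10 libraries. *NAI2* was called in 9 of the 10 leave-one-out fits, with 0.307 without *plt3 plt7* replicate 3, and *NSP1* in 6, with 0.189 without Col-0 replicate 2. *GLL23* was called in all 10 but not by edgeR. Without harvest group in the model no gene of the list was called lower, and the adjusted p was 0.616 for *NAI2*, 0.458 for *GLL23* and 0.413 for *NSP1*. A share of 36.9% of the sequence words of *NSP1* was found in its relatives.

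Synthesis of glucosinolates held fewer calls, 2 of 21, with a median log2 fold change of -0.15. *CYP79B3*, which turns tryptophan into the precursor of indole glucosinolates, had 76.9 to 337 normalised counts in Col-0 and 64.3 to 121 in the mutant (-1.07 ± 0.28, adjusted p = 0.0125), in 8 of the 10 leave-one-out fits and with 0.152 without Col-0 replicate 2. *FMOGS-OX7* was lower by -0.74 ± 0.21 (adjusted p = 0.0331) in 4 of the fits, with 0.267 without Col-0 replicate 5. *CYP79B2*, *CYP81F4* and *MYB51* were at -0.86, -0.67 and -1.49 and were not called (adjusted p = 0.351, 0.416 and 0.586).

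**Figure D5:**
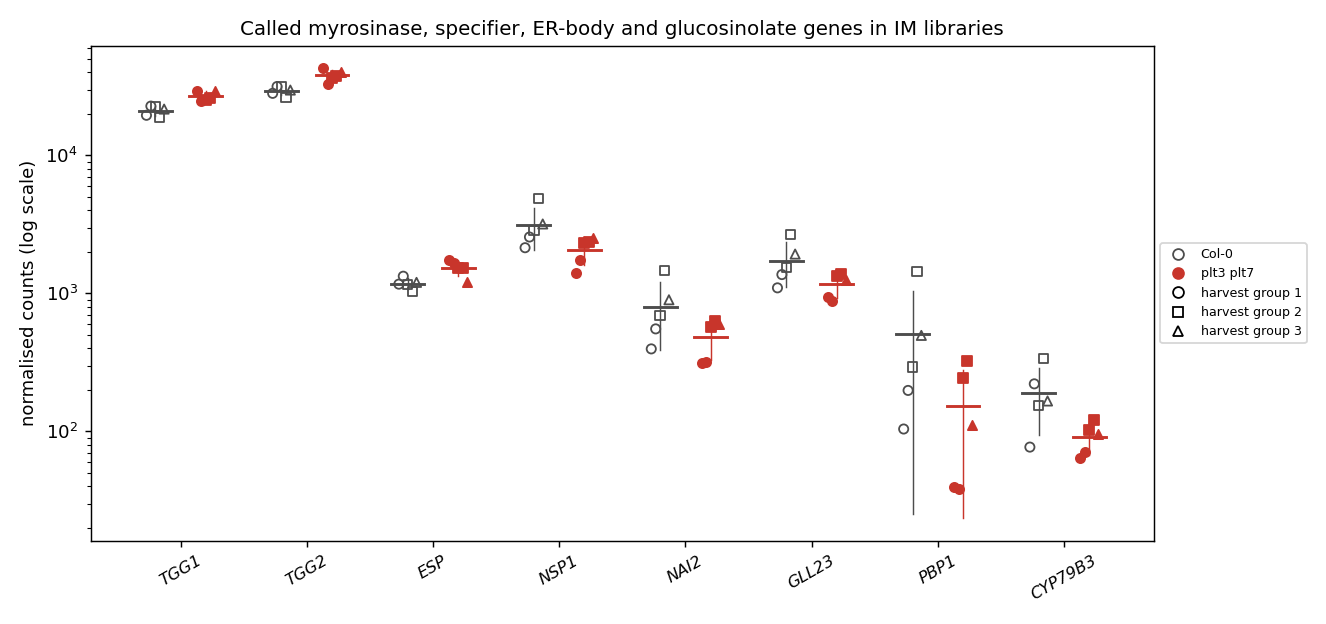
Normalised counts (y axis, log scale) of called genes of the myrosinase system and of *CYP79B3* in the 10 IM libraries, with symbols, bars and lines as in the plot of MADS-box genes. *TGG1*, *TGG2* and *ESP* are higher in *plt3 plt7*, and for the 5 lower genes Col-0 spreads more widely than the mutant, from 104 to 1435 for *PBP1*.

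Among the remaining transcription factor families called members were mostly lower. Genes with a B3 DNA-binding domain gave 3 lower and no higher calls of 64 tested. AT1G49475 had 311, 313, 309, 261 and 315 normalised counts in Col-0 and 95.2, 122, 107, 106 and 124 in *plt3 plt7*. The lowest Col-0 library lay far above the highest mutant library, and the log2 fold change was -1.45 ± 0.13 (adjusted p = 8.18e-25). AT1G26680 had 126, 161, 150, 106 and 151 against 40.8, 67.3, 57.5, 54.1 and 52.2 (-1.36 ± 0.21, adjusted p = 4.05e-08). Both were held calls with separate groups, whereas AT3G11580 (-0.37 ± 0.12, adjusted p = 0.0626) was called in 1 of the 10 leave-one-out fits, with 0.358 without Col-0 replicate 4.

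AT-hook proteins of the AHL family, which bind AT-rich DNA and restrain growth, gave 3 lower calls of 23. *AHL23* had 147 to 185 normalised counts in Col-0 and 85.3 to 121 in the mutant (-0.60 ± 0.16, adjusted p = 0.0142), a held call. *AHL25* (-1.05 ± 0.31, adjusted p = 0.0414) and *AHL17* (-0.47 ± 0.15, adjusted p = 0.0632) were each called in 4 of the 10 leave-one-out fits, with 0.224 without Col-0 replicate 3 and 0.327 without *plt3 plt7* replicate 3. OVATE family repressors gave 2 of 13, *OFP1* (-0.46 ± 0.12, adjusted p = 0.0129) and *OFP7* (-0.44 ± 0.12, adjusted p = 0.0254), neither by edgeR and the latter in 7 of the 10 fits, with 0.131 without *plt3 plt7* replicate 4. Both were also lost in the fit of all 20 libraries. The MYB family by product name gave 3 lower calls of 85 (3.53%, beside 1.07% of all genes called lower). They were *PAP2* of anthocyanin synthesis, *GL1* of trichome formation and *MYB92* of suberin synthesis. Each was called in at most 3 of the 10 fits, with 0.338 without Col-0 replicate 2, 0.433 without Col-0 replicate 4 and 0.422 without *plt3 plt7* replicate 3. *TMO5*, the bHLH partner of LHW in vascular cell division, had 2119, 1832, 1971, 1532 and 2070 in Col-0 and 1432, 1448, 1258, 1098 and 1233 in *plt3 plt7*. No mutant library reached the Col-0 range, and *TMO5* fell by 0.56 ± 0.09 on the log2 scale (adjusted p = 4.49e-08), a held call. *ERF2*, an ethylene response factor gene, had 115, 288, 213, 521 and 196 against 55.6, 56.1, 73.7, 108 and 98.5. Its groups did not overlap although Col-0 replicate 4 stood high, and the fall of -1.75 ± 0.29 (adjusted p = 7.29e-07) was held.

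Of 43 meristem and boundary regulators 4 were lower, *PLT3*, *TMO5*, *AHP6* and *DRNL*. *DRNL*, an AP2 factor that marks organ founder cells, had 89.0 to 151 normalised counts in Col-0 and 36.8 to 86.9 in the mutant, without overlap. Its log2 fold change of -0.66 ± 0.21 (adjusted p = 0.0672) was called in 2 of the 10 leave-one-out fits, with 0.309 without Col-0 replicate 5. In the other direction, all 8 CIN-type *TCP* genes, which favour differentiation of lateral organs, were above 0, with a median of 0.23. *TCP4* alone was called (0.36 ± 0.09, adjusted p = 0.00397), with 1265 to 1692 in Col-0 and 1767 to 2126 in *plt3 plt7*, in 7 of the 10 fits, its change being under the minimum fold without Col-0 replicate 4 or 5 or *plt3 plt7* replicate 5. Neither edgeR nor the fit of all 20 libraries made this call. The cell-cycle list held *KRP2*, an inhibitor of cyclin-dependent kinases, at -0.38 ± 0.09 (adjusted p = 0.0039, held), and *CYCA2;1* at 0.51 ± 0.16 (adjusted p = 0.0673), in 1 of the 10 fits, with 0.304 without *plt3 plt7* replicate 4. *AGO5*, an argonaute gene, was lower (-0.44 ± 0.09, adjusted p = 0.00061, held), and *NRPE3B*, a subunit gene of RNA polymerase V, was higher (0.37 ± 0.09, adjusted p = 0.00815, held).

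Of 30 tested genes that are induced when sugar is short, 4 were called lower, 1 of them also by edgeR, and 28 had log2 fold changes below 0, with a median of -0.38. Their normalised counts summed to 38300, 55750, 39720, 75170 and 39720 in Col-0 and 34100, 34520, 35390, 52830 and 39970 in *plt3 plt7*. The ranges overlapped, with Col-0 replicates 2 and 4 high, and in harvest group 3 the sums were nearly equal. *THA1*, a threonine aldolase gene, had 968 to 1809 normalised counts in Col-0 and 593 to 860 in *plt3 plt7* (-0.82 ± 0.15, adjusted p = 1.36e-05), a held call that was lost in the fit of all 20 libraries (0.283). *BT5* (-1.31 ± 0.29, adjusted p = 0.00117) and the autophagy gene *ATG8E* (-0.82 ± 0.18, adjusted p = 0.00142) were called in all leave-one-out fits but not by edgeR. The transcription factor gene *BZIP63* (-0.41 ± 0.12, adjusted p = 0.0408) was called in 5 of the 10, with 0.164 without Col-0 replicate 4. The median of the list was -0.24 without Col-0 replicate 4, with 3 lower calls and 26 of 30 genes below 0, and in the other fits of this kind it lay between that and -0.52. Of 8 trehalose-6-phosphate synthase genes, *TPS1*, whose product makes the sugar signal trehalose-6-phosphate, was higher (0.33 ± 0.07, adjusted p = 0.00127), just past the minimum fold change and in 5 of the 10 fits, under the minimum without Col-0 replicate 4 or 5 or *plt3 plt7* replicate 2, 3 or 5. *TPS6* was lower (-0.37 ± 0.11, adjusted p = 0.0343) in 6 of the 10, with 0.199 without Col-0 replicate 2, and all 7 class members other than *TPS1* were below 0. *BAM5*, a beta-amylase gene, was higher, with 11330 to 20775 in Col-0 and 18743 to 34638 in the mutant (0.72 ± 0.23, adjusted p = 0.0853), in 3 of the 10 fits and with 0.326 without *plt3 plt7* replicate 3.

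Light-harvesting genes were lower in 3 of 21, and 19 of the 21 were below 0 with a median of -0.15. *LHCB2.3* had 229, 292, 331, 369 and 294 normalised counts in Col-0 and 156, 179, 154, 134 and 195 in *plt3 plt7*. The groups were apart and the log2 fold change was -0.89 ± 0.16 (adjusted p = 3.83e-06), a held call. The gene shares 39.9% of its sequence words with other transcripts and overlaps AT3G27700 on the opposite strand. *LHCB2.2* (-0.36 ± 0.10, adjusted p = 0.0259) and *LHCB1.5* (-0.36 ± 0.09, adjusted p = 0.0125) were called in 7 and 3 of the 10 leave-one-out fits, with 0.178 and 0.55 without Col-0 replicate 2. They share 39.4% and 100% of their words with other transcripts. On the opposite strand *LHCB1.5* overlaps AT2G08665 by 1045 exon bases and AT2G34410 by 99, so its share is not one with paralogues alone. Of the 4 mesophyll markers, 3 are themselves light-harvesting genes, and the other, the Rubisco gene *RBCS1A*, had means of 53740 and 53810 (log2 fold change 0.004).

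Heat-shock genes were lower in 3 of 18. *HSP70* (AT3G12580) had 431 to 594 normalised counts in Col-0 and 276 to 418 in *plt3 plt7* (-0.62 ± 0.13, adjusted p = 0.000365), and the small heat-shock gene *ACD26.0* 342 to 439 and 199 to 298 (-0.67 ± 0.14, adjusted p = 0.000618). Both were held, with no overlap, and *HSP90.1* was lower by -0.39 ± 0.13 (adjusted p = 0.0827) in 3 of the 10 leave-one-out fits, with 0.383 without Col-0 replicate 5. Of 22 mitochondrially encoded genes tested 19 were below 0, with a median of -0.37, and 4 were called lower, none by edgeR. ATMG00180 (-0.62 ± 0.16, adjusted p = 0.00815) was called in all 10 leave-one-out fits but not in the fit of all 20 libraries. ATMG00650, ATMG01360 and ATMG00090 were called in 6, 4 and 3 of them, with 0.116 without *plt3 plt7* replicate 3, 0.271 without Col-0 replicate 2 and 0.421 without Col-0 replicate 4. The list had 1 lower call without Col-0 replicate 4 or without *plt3 plt7* replicate 2 or 3, and 5 without Col-0 replicate 3. These genes took only 0.00840% to 0.0187% of a library. Of 21 sulfur and phosphate starvation genes tested, 17 were above 0, with a median of 0.19, and 2 were called higher and 1 lower. Of the higher ones, *LSU2* lost its call in 9 of the alternative fits, among them edgeR and the fit of all 20 libraries. *PS2*, a phosphate-starvation phosphatase gene, was higher (0.53 ± 0.13, adjusted p = 0.0039) and *APS4*, an ATP sulfurylase gene, was lower (-0.47 ± 0.11, adjusted p = 0.00139), both held. Without harvest group in the model neither was called (0.118 and 0.154), nor was *PS2* in the fit of all 20 libraries (0.864). *LOX2*, a lipoxygenase gene of jasmonate synthesis with 25029 to 36657 in Col-0 and 37872 to 45482 in the mutant, was the only one of 24 jasmonate genes called (0.37 ± 0.08, adjusted p = 0.000929). Its groups did not overlap, it was called in 8 of the 10 fits, not without replicate 1 of either genotype, and edgeR did not call it (adjusted p = 0.12). The call of *LOX2* was also lost in the fit of all 20 libraries.

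Phloem was the tissue list with higher calls. Of 18 genes tested 3 were higher and none lower, and the list's median was 0.18. *SEOR1* and *SEOR2* (AT3G01680 and AT3G01670) encode the filament proteins of sieve elements and are neighbours on chromosome 3. *SEOR2* had 483, 573, 601, 567 and 554 normalised counts in Col-0 and 785, 750, 716, 660 and 758 in *plt3 plt7* (0.40 ± 0.09, adjusted p = 0.00152), and *SEOR1* had 397, 488, 466, 418 and 362 against 580, 649, 545, 582 and 476 (0.40 ± 0.10, adjusted p = 0.0028). Both were held, and only *plt3 plt7* replicate 5 of *SEOR1* reached into the Col-0 range. *KAT2* (AT4G18290), an inward potassium channel of phloem and guard cells, had 233, 242, 275, 210 and 201 against 461, 497, 493, 450 and 362. Its lowest mutant library lay well above its highest Col-0 library, and the log2 fold change was 0.95 ± 0.11 (adjusted p = 3.66e-15), a held call.

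The 6 defining phloem markers summed to 1406 to 1894 normalised counts in Col-0 and 1934 to 2099 in the mutant. These sums include the 2 called genes *SEOR1* and *SEOR2*, with means of 426 and 555 in Col-0 and 566 and 734 in *plt3 plt7*. They are therefore not separate from those 2 calls. The companion-cell transporter *SUC2* and the phloem protein *PP2-A1* were at -0.12 and -0.19 (adjusted p = 0.952 and 0.905), and *APL* and *CALS7* at 0.23 and 0.25 (0.652 and 0.489). Guard cell markers summed to 310.5 to 389.5 in Col-0 and 386 to 483 in *plt3 plt7*, with none of 3 tested genes called and *KAT1* at 0.02. The part of either cell type in the rise of *KAT2* was not tested. Xylem genes gave 2 lower calls of 15, *TMO5* and the peroxidase gene *PRX71* (-1.53 ± 0.49, adjusted p = 0.07), the latter in 7 of the 10 leave-one-out fits and with 0.295 without *plt3 plt7* replicate 3.

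Many of the calls with the smallest adjusted p-values belonged to none of these lists. Cystatins, inhibitors of cysteine proteases, gave 1 higher and 2 lower calls of 13 genes so annotated. AT5G17090 had 245, 189, 211, 175 and 166 normalised counts in Col-0 and 701, 823, 732, 554 and 573 in *plt3 plt7*. Its neighbour AT5G17080, not named a cystatin in the annotation used, had 71.4 to 138 and 129 to 208 (0.79 ± 0.18, adjusted p = 0.00247). Mutant and Col-0 libraries of AT5G17090 were far apart (1.77 ± 0.12, adjusted p = 1.65e-42). The cystatin-like AT1G03710 went from 1013, 803, 856, 729 and 793 to 519, 410, 420, 285 and 289, and fell by 1.14 ± 0.13 on the log2 scale (adjusted p = 7.64e-15). All 3 were held, whereas *CYSA* (-0.37 ± 0.12, adjusted p = 0.0996) was called in 2 of the 10 leave-one-out fits, with 0.364 without Col-0 replicate 4.

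F-box proteins by product name, the substrate-binding parts of ubiquitin ligases, gave 3 higher and 2 lower calls of 188 (2.66%, beside 1.53% of all genes). *KMD2*, described above, is not in this count. AT4G22390 had 199, 219, 243, 170 and 190 normalised counts in Col-0 and 440, 441, 378, 398 and 498 in *plt3 plt7* (1.05 ± 0.13, adjusted p = 3.75e-13). AT5G56370 had 187, 145, 191, 210 and 219 against 345, 324, 287, 337 and 389 (0.82 ± 0.13, adjusted p = 1.15e-07). Both were held and did not overlap. AT5G56810 was low, with 8.10 to 33.4 and 45.6 to 131, and its rise of 1.74 ± 0.39 (adjusted p = 0.00114) was not called by edgeR (0.11). AT4G00250, a protein related to the storekeeper DNA-binding factor, had 62.7, 70.5, 88.4, 77.5 and 86.4 against 230, 325, 231, 196 and 213. All mutant libraries were above all Col-0 libraries (1.62 ± 0.19, adjusted p = 7.64e-15), and the call was held.

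A further 5 calls with small adjusted p-values were genes of unknown or loosely assigned function. AT5G34830, uncharacterised, had 3.8, 5.18, 1.18, 0 and 0 normalised counts in Col-0 and 66.7, 96.1, 87.1, 82.7 and 99.7 in *plt3 plt7*. It was close to absent from the wild type, so that its log2 fold change of 5.44 ± 0.61 (adjusted p = 5.5e-16) is loosely bounded. It reached the count minimum through the mutant libraries alone, and was called in the 5 fits without a Col-0 library and not tested in those without a mutant one. AT1G75945 went from 142, 122, 110, 72.9 and 70.2 to 397, 343, 513, 289 and 296 (1.85 ± 0.20, adjusted p = 8.85e-18). On the lower side, AT5G24240, a gene of the phosphatidylinositol 4-kinase gamma group by its annotation, had 224, 229, 134, 173 and 226 in Col-0 and 51.9, 28.8, 12.4, 6.37 and 15.1 in the mutant. Its mutant libraries differed among themselves, with replicate 1 the highest, but all were far below Col-0 (-3.30 ± 0.30, adjusted p = 8.13e-25). AT1G33790, a jacalin lectin family gene, went from 684, 739, 896, 1271 and 911 to 180, 199, 316, 349 and 365 (-1.70 ± 0.12, adjusted p = 5.44e-39). The proline-rich AT4G19200 went from 1066, 1197, 1180, 1608 and 1257 to 554, 437, 491, 541 and 487 (-1.32 ± 0.11, adjusted p = 8.73e-32). Groups were separate for each of these 5 genes, and the 4 other than AT5G34830 were held calls.

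Further calls lay in classes of enzymes, carriers and other proteins. A wide class was matched by words such as transporter, permease and carrier in the product name. It gave 4 higher and 5 lower calls of 550 (1.64%, beside 1.53% of all genes). *FTM1* of the low-oxygen list was among the lower ones, and such a match does not make a gene a transporter. Cytochrome P450 genes gave 2 higher and 6 lower calls of 108 (7.41%), among them *CYP96A1* (-0.37 ± 0.08, adjusted p = 0.000544) and *CYP96A9* (-0.38 ± 0.09, adjusted p = 0.00376), of a family that oxidises cuticular alkanes in the case of its member MAH1, both held but lost without harvest group in the model (0.131 and 0.120). *CYP96A9* was also lost in the fit of all 20 libraries. Lipid-transfer proteins gave 3 lower and 1 higher of 47, with the abundant AT1G62500 at 21230 to 25889 normalised counts in Col-0 and 15624 to 20013 in the mutant (-0.42 ± 0.08, adjusted p = 2.38e-05) and AT2G45180 at 2952 to 3548 and 2131 to 2674 (-0.42 ± 0.08, adjusted p = 7.7e-06). Neither gene overlapped between genotypes, and both were held. Major facilitator transporters gave 2 higher and 4 lower of 96, with AT1G22550 at 264 to 300 against 141 to 162 (-0.81 ± 0.12, adjusted p = 5.55e-09). *UMAMIT47*, of a family of amino acid exporters, was higher (0.62 ± 0.13, adjusted p = 0.000632), as were the annexin gene *ANNAT1*, with 1283 to 1801 against 1957 to 2393 (0.57 ± 0.07, adjusted p = 3.16e-14), and the plastid chaperonin gene *Cpn60beta3*, with 1797 to 2393 against 2399 to 3253 (0.53 ± 0.08, adjusted p = 1.84e-09). These 4 were held calls. *MRD1*, annotated by its response in the methionine mutant *mto1*, was steady within each genotype, at 2058 to 2166 and 1407 to 1575 (-0.50 ± 0.05, adjusted p = 6.24e-17, held), but 89.5% of its sequence words were shared and it overlaps AT1G53490 on the opposite strand.

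Some called genes lay side by side. Of 19319 adjacent pairs of tested genes 10 had both genes called, and 9 of these went the same way. Since 208 of the 297 calls were lower, many pairs would share a direction in any case. The number of such pairs that chance would give was not worked out. Higher pairs were *SEOR2* and *SEOR1*, *FH3* and *BAM5*, AT5G17080 and AT5G17090, *TGG2* and *TGG1*, and *AGL72* and *AGL71*. Lower pairs were *ATG8E* and AT2G45180, AT4G10265 and AT4G10270, AT5G07860 and AT5G07870, and *WVD2* and *WRKY74*, and the mixed pair was AT1G23710 and *BCA3*. *SEOR2* and *SEOR1*, *TGG2* and *TGG1*, and *AGL72* and *AGL71* are each neighbours of one family. Near the mutated loci, 3 of 97 genes tested within 200 kb of *PLT3* were called (3.093%), *FLC* 136 kb away, *MYB92* 81.1 kb away and AT5G10620 34.7 kb away, and 7 of 457 (1.532%) within 1 Mb. Within 200 kb of *PLT7* there were 2 of 91, *MAF4* and AT5G65207. Whether linkage to the mutated loci bears on these genes was not tested.

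Promoters were searched for letters of known elements in the window from 250 bases before to 50 after each annotated start, on both strands. An AINTEGUMENTA-type element, spelled CAC, 3 free bases, T, 1 free base, CC, 1 free base, A, 1 free base and G, was in 0.248% of all 19323 windows, in 1 of 89 higher genes and in 1 of 203 lower genes. A G-box, CACGTG, was in 8.71% of all windows, in 8.99% of those of higher genes and in 10.8% of those of lower genes. The CArG box bound by MADS-box proteins, a search added after results had been seen, was in 3.31% of all windows, 5 of the 89 higher and 2 of the 203 lower. The 1 element that lay upstream of a called gene belonged to *RABA4C* (AT5G47960, chr5:19422534-19422783, minus strand), a Rab GTPase gene that was chosen for display after its match was seen. It was lower by -0.89 ± 0.29 (adjusted p = 0.0797), in 1 of the 10 leave-one-out fits and not by edgeR. The capitals mark the element at -83 to -70, and the window overlaps the neighbouring gene AT5G47970.
RABA4C: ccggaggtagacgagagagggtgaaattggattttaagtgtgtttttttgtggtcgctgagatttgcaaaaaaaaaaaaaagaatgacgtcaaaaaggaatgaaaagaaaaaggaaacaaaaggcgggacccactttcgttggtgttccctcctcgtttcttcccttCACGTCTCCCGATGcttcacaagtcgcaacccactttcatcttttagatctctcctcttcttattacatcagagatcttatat

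Whether an effect in IM differed from that in SAM was tested as an interaction over all 20 libraries, in which 75 of 20226 genes passed (0.371%). Of the 297 IM calls, 272 were tested in SAM, 14 were called there (0.453% of all SAM genes were called), and 53 had an interaction. The 297 were chosen by their IM effect in the same libraries, which favours an interaction. The shares over all genes are therefore not a like base, and the counts do not show that the effects are particular to IM. *FLC*, *KAT2* and *TGG1*, which rose in IM, had log2 fold changes of -0.07, -0.03 and -0.22 in SAM and were not called there, and their IM effect minus their SAM effect was 1.296, 0.98 and 0.57. This difference was -0.83 for *LOG5*, -1.74 for AT1G03710 and -1.99 for *PBP1*, and *AGO5* fell less in IM (-0.44) than in SAM (-1.45). Tissue went together with age, growth substrate and harvest, so these cannot be told apart.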

How the data were processed

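RNA was measured in 10 IM libraries, 5 per genotype. The authors trimmed reads with fastp v.0.23.4 and assigned them to TAIR10.1 cDNA with kallisto v.0.46.1. Per transcript, the authors deposited estimated counts that are not normalised, and these were summed to 27562 loci and rounded here. The deposited tables also give TPM, which was not used for any test, and transcript lengths, from which fragment length was read. The strand setting of kallisto is not given in the sources used here, which leaves genes with an antisense neighbour uncertain.

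A gene was tested where 5 or more of the libraries had 10 or more counts, by the Wald test of DESeq2 1.42.0 with its default size factors in R 4.3.3, with harvest group as covariate, as in the test the study describes. Calls needed a Benjamini-Hochberg adjusted p-value under 0.1 and a fold change over 1.25. Positive log2 fold changes mean higher in *plt3 plt7*, and they are unshrunken and given with their standard error. Independent filtering left 754 genes without an adjusted p-value. The alternatives were edgeR 4.0.16, TMM factors, no filter on low counts, no harvest group, a replicate block, 1 fit of all 20 libraries, an adjusted p-value under 0.05, no minimum fold change, and leaving out each library in turn. The model fits were tested on simulated data. Shared sequence is the percentage of a gene's words of 31 bases found in annotated transcripts of other genes, on either strand and whether or not these were counted. Tables were joined and drawn in Python 3.11.15 with pandas 2.3.3, numpy 2.4.6 and matplotlib 3.10.9. scipy 1.17.1 gave the exact permutation test.

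Library totals of 24.8 to 114.9 megacounts make counting error small for abundant genes and large for rare ones, and it is part of each printed SD. Reads carried no molecular identifiers. All pairs of replicates differed by more than sampling noise.

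Named genes are *PLT3* and *PLT7*, the 10 strongest calls by adjusted p-value in each direction outside the low-oxygen list, the called members of the other lists, called neighbours of the same direction, and called members of annotation classes with at least 3 calls. *RABA4C* and the genes compared beside a called gene fall outside this rule. The members and lists were chosen with earlier results of these data known.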

Additional observations from a re-analysis of the deposited data

Results flagged for a closer look

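Within sets of 5 libraries of a genotype, 50 sets were screened for a library whose gap to the nearest other took up most of the set's range, and 7 were found, where the criterion used, at the 95% level, flags about 1 set in 20 by chance. AT1G04660, a glycine-rich protein gene, had 2795 normalised counts in *plt3 plt7* replicate 3 against 1705 to 1935 in the other mutant libraries. AT1G22550 had 299.8 in Col-0 replicate 5, *Cpn60beta3* had 2393 in the same library, and AT1G49475 had 261.2 in Col-0 replicate 4, the lowest of its group. AT4G00250 had 325.2 in *plt3 plt7* replicate 2. All 5 genes were held calls with no overlap between genotypes. The mean fragment length of Col-0 replicate 4 was 430.0 nt, and the total of *plt3 plt7* replicate 3 was 114.9 megacounts.

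The genotype effect in IM differed from that in SAM for 32 of the 168 named genes by the interaction test of DESeq2 (adjusted p under 0.1 over all genes). Nearly all named genes were chosen by their IM calls in the same libraries, which favours such a difference. The IM minus SAM difference on the log2 scale was positive for *TPS1* (0.51), *AGO5* (0.97), AT3G05165 (0.49), AT3G16650 (0.65), AT3G59750 (0.96), AT4G00250 (1.26), *KAT2* (0.98), AT4G22390 (0.99), *FLC* (1.296), *TGG1* (0.57), AT5G56370 (0.82), *Cpn60beta3* (0.50) and AT5G56810 (1.66). It was negative for AT1G03710 (-1.74), AT1G04660 (-1.34), *KMD2* (-1.20), *MRD1* (-0.36), *GLL23* (-0.65), *PBP1* (-1.99), *IAA2* (-0.84), *LHCB2.3* (-0.85), *GL1* (-1.10), *KRP2* (-0.75), AT4G10270 (-1.07), AT4G19200 (-1.20), AT4G33560 (-2.43), *LOG5* (-0.83), AT5G07870 (-0.46), AT5G48490 (-1.10), *TIL* (-0.63) and AT5G65207 (-1.20). The largest was that of *FTM1* (-3.44, adjusted p = 3.5e-16), which was lower in IM by -1.78 and higher in SAM by 1.65.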

How the results depend on the processing

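Every call kept its sign in each fit that held it, which was 295 of the 297 in the fits without a mutant library, where *AGL72* and AT5G34830 were below the count minimum. There were 146 calls with edgeR, 53 of them higher and 93 lower, and 499 with no minimum fold change (187 higher). The number ran from 190 to 479 over the fits that left out 1 library (65 to 113 higher, 121 to 366 lower). It was within 1.5 times of 297 in the others, at 295 with TMM factors, 280 with no filter on low counts, 236 with no harvest group, 255 in 1 fit of all 20 libraries and 232 with an adjusted p under 0.05. Of the 168 named genes, 81 lost the call with edgeR, 47 with no harvest group, 48 in the fit of all libraries and 12 to 58 without 1 library. The study collected on 5 separate days, but no source used here ties a replicate number to a day, and SAM replicate 2 lies in different harvest groups in the 2 genotypes. With a replicate block 328 genes were called, and 15 of the 168 named genes were not, among them *AGL71* (0.102), *MAF4* (0.183), *DRNL* (0.123), *LHCB2.2* (0.326), *LHCB1.5* (0.201), *CYCA2;1* (0.130), *PAP2* (0.170), *GL1* (0.118), *MYB92* (0.154) and AT3G11580 (0.143). In IM, same-numbered libraries correlated at r = 0.29, 0.17, -0.02, 0.64 and 0.26 over 17414 genes after removal of group means, so they were not treated as pairs, and 2 of the 5 Col-0 libraries correlated best with their own number. The cause of these differences was not tested. Low-count genes such as *AGL72*, *FLC* and AT5G34830 are limited by depth.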

Other observations

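Of 7 genes annotated as wound-responsive proteins that were tested, 4 were lower, AT4G05070 (-0.45), AT4G10265 (-1.04), AT4G10270 (-0.54) and AT4G33560 (-1.48), and none higher. The latter 3 belong to the low-oxygen list. AT4G05070 (adjusted p = 0.0573) was called in 3 of the 10 fits that left out 1 library, with 0.325 without Col-0 replicate 4, and not by edgeR (0.243), without harvest group (0.51) or in the fit of all 20 libraries (0.175). AT4G10270 was not called by edgeR (0.212). The anthocyanin and flavonoid list of 16 genes held 1 call, *PAP2*, and the expansin list of 14 none.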
